A study of Mus musculus with 10 samples.

Results

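The Slc25 genes encode the mitochondrial carriers, and every protein-coding gene of the count table whose GENCODE mouse symbol is Slc25a followed by a number was taken as a member. This gave 47 members among 43629 listed genes, of which 21474 were protein-coding. The kidneys came from male mice of the UM-HET3 stock, which is bred to be genetically mixed, at an age of 4 months. In the rilmenidine group, 4 mice had eaten a diet with 10 ppm of this imidazoline receptor agonist, a medicine for hypertension, since the age of 3 months, that is for 1 month. The control group was 6 littermates of the same age and sex on the same diet without the drug, and the labels name no engineered allele in either group. Each library was made from the polyA RNA of a different mouse's kidney with a protocol that counts the 3′ end of transcripts, and values below are counts scaled to a common library size (CPM) after RLE normalization.

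Carriers of this family sit in the inner mitochondrial membrane, apart from a few placed in the outer membrane or in peroxisomes. Each is built from repeated pairs of membrane-spanning helices and moves a metabolite between the cytosol and the matrix, often in exchange for another. They bring ADP and phosphate to the ATP synthase, return ATP, and pass citrate, malate, aspartate, glutamate, ornithine, acylcarnitines, coenzyme A, NAD+, glutathione and iron. The kidney, whose proximal tubule reabsorbs most of the filtered solutes by active transport, is among the tissues richest in mitochondria.

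Total counts ran from 863605 to 2559118 in the control libraries and from 1813465 to 3232063 in the rilmenidine libraries, and 40 to 43 members had at least 1 count in a library. The extraction text in the labels speaks of liver, so markers were checked. Proximal tubule markers summed to between 44729 and 57560 CPM in controls and between 48578 and 72140 CPM with rilmenidine, and liver markers to at most 28.8 CPM in any library. Most of the proximal tubule sum was Kap, at 31432 to 46303 CPM in controls and 36551 to 59589 CPM with rilmenidine. The other proximal tubule markers averaged between 5.02 CPM (Slc5a2) and 6002 CPM (Slc34a1) in controls. Some markers of nephron parts differed between the groups, none past the adjusted threshold. At an unadjusted p under 0.05, 4.43% of all genes were higher and 6.13% lower. At that level 2 of 5 tested thick ascending limb markers and 2 of 5 principal cell markers were higher with rilmenidine. Of 10 proximal tubule markers 1 was higher, Miox (log2 fold change 0.39, unadjusted p from edgeR = 0.0467). Of 4 distal convoluted tubule markers 2 were lower, while 0 of 4 intercalated cell and 0 of 4 podocyte markers passed. Their part in the values of the carriers was not tested, and in whole kidney fewer cells of a type and less RNA per cell cannot be told apart. The libraries also stood apart by Malat1, an abundant nuclear RNA, which lay between 1182 and 2100 CPM in controls 1, 3, 4 and 5 and between 284 and 398 CPM in all other libraries. By olfactory and vomeronasal receptor genes, 7 libraries (5 control and 2 rilmenidine) had at least 10 CPM.

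In control kidneys the carriers of adenine nucleotides and phosphate and the glutathione carrier Slc25a39 held most of the family's counts. Slc25a5, an ADP/ATP carrier and the isoform of most tissues, took 26.4% of all Slc25 CPM. Slc25a39, a carrier that brings glutathione into the matrix, took 18.2%, and the phosphate carrier Slc25a3 took 9.41%. Together these 3 members made up 54.0% of the family's CPM, and the 8 highest made up 77.1%. The family as a whole took between 0.521% and 0.627% of the counts of a library.

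Slc25a5 (X:36795651-36798807, plus strand; all coordinates are GRCm38) stood at 1246 CPM in the lowest control, 1328 at the median and 1891 in the highest, with a mean of 1483 ± 286 (SD, n = 6). Slc25a39 (11:102402985-102407946, minus strand) ran from 904 over a median of 984 to 1189 CPM, with a mean of 1019.6 ± 120.2 (SD, n = 6). No control value of Slc25a5 overlapped those of Slc25a39, and the same held for Slc25a39 against Slc25a3, whose controls ran from 467 over a median of 528 to 597 CPM. Counts at the 3′ end and counts spread over a transcript call for different scales, so an order between genes is given only where CPM and CPM per kb of exon both show it. Slc25a5 was first on both scales, at 901 CPM per kb, and Slc25a39 second, at 370.0 CPM per kb. The order below them depended on the scale, since Slc25a4 came before Slc25a3 per kb (115 against 95.1 CPM per kb) and after it in CPM.

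Of the next members in CPM, Slc25a15, the ornithine carrier of the urea cycle, averaged 317 ± 40.4 CPM, and Slc25a51, which brings NAD+ into the matrix, averaged 281 ± 36.2 CPM (SD, n = 6). Slc25a4, the ADP/ATP carrier that dominates in heart and muscle, averaged 270.4 ± 71.0 CPM (SD, n = 6). Slc25a10, the dicarboxylate carrier that exchanges malate or succinate for phosphate, averaged 232 ± 37.3 CPM, and Slc25a16, linked to coenzyme A in the matrix, 194 ± 25.2 CPM (SD, n = 6). These 5 followed one another within their spread, as the control values of each overlapped those of the next in rank. All of the 8 highest members by CPM were among the 9 highest per kb. At the other end of the tested members, Slc25a40 (9.22 CPM), Slc25a26 (7.92 CPM), which carries S-adenosylmethionine, and Slc25a24 (6.06 CPM), an ATP-Mg/phosphate carrier, were the 3 lowest on both scales, in a different order on each.

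**Figure D1:**
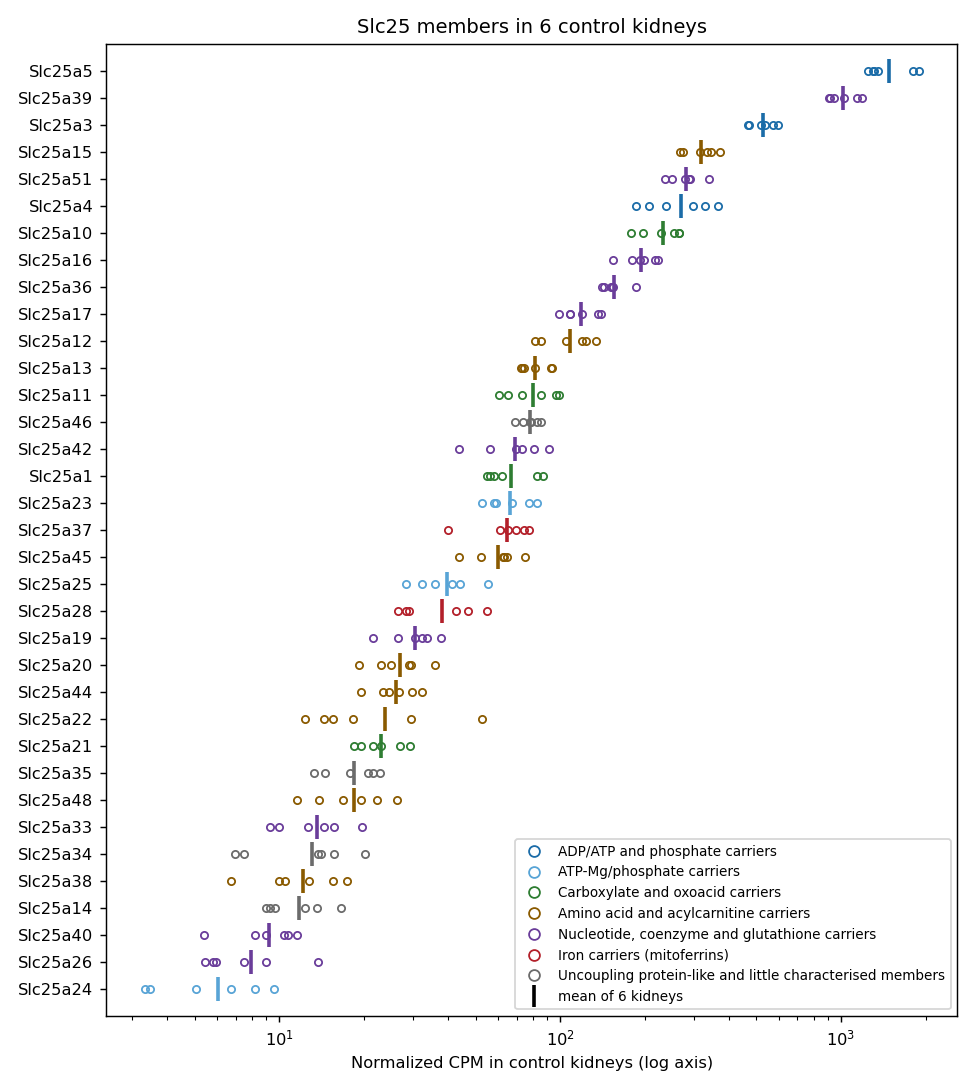
Normalized CPM (log axis) of the 35 tested Slc25 members in the 6 control kidneys, 1 point per kidney, with the mean as a bar and the role of the carrier as the colour. Slc25a5, Slc25a39 and Slc25a3 stand apart at the top with no overlap between them, while the members from Slc25a15 to Slc25a16 overlap their neighbours.

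By role, the 4 ADP/ATP and phosphate carriers took 40.7% of the family's control CPM and the 11 nucleotide, coenzyme and glutathione carriers 33.9%. The 12 amino acid and acylcarnitine carriers took 12.1% and the 4 carboxylate and oxoacid carriers 7.17%. The 10 uncoupling protein-like and little characterised members took 2.30%, the 4 ATP-Mg/phosphate carriers 2.00% and the 2 mitoferrins, which carry iron, 1.83%. Across control kidneys the coefficient of variation of the tested members had a median of 20.2%, against 23.5% over all genes tested. The members also had the higher median control level, 64.7 CPM against 26.1 CPM, and the part of level in this difference was not tested. The coefficient was lowest in Slc25a46, an outer membrane member tied to the shape of mitochondria, at 7.76%, with control values between 68.8 and 85.3 CPM. It was highest in the glutamate carrier Slc25a22, at 64.6%, where control 5 stood at 52.6 CPM and the other controls between 12.3 and 29.4 CPM.

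Of the 47 members, 12 fell short of 6 reads in 7 of the 10 libraries and were not tested. No count was found in any library for Slc25a2, a carrier of ornithine and basic amino acids, for the glutamate carrier Slc25a18, or for Slc25a41, of the ATP-Mg/phosphate group, and a count of 0 allows up to 3 counts in a library. The other 9 had at most 18 counts in a library. Among them Slc25a31, the ADP/ATP carrier of the male germ line, had 0 to 3 counts, and Slc25a47, known from liver, had 0 or 1. Slc25a32, which carries folate or flavin, came closest with 1 to 18 counts, and Slc25a27, Slc25a29, Slc25a30, Slc25a43, Slc25a53 and Slc25a54 made up the rest. Of all members, 14 share exon bases with another gene, protein-coding ones always on the opposite strand, among them Slc25a35 with Rangrf (1151 of its 3677 exon bases), Slc25a11 with Rnf167 (189 bases), Slc25a25 with Naif1 (379) and Slc25a46 with B930094E09Rik (383), and their counts are uncertain to that extent because the strand setting is not stated.

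Pairs of close relatives ran from near even to far apart in the kidney. The ratio of 2 members was taken within each library as log2 of counts with a prior count of 2, which makes the ratio of a member with few counts depend on depth. Slc25a5 exceeded Slc25a4 by 5.54-fold in control kidneys, and it was the higher member in all 10 libraries on both scales. The control log2 ratio of Slc25a4 to Slc25a5 was -2.47 ± 0.23 (SD, n = 6). The glutathione carriers were more uneven still, with Slc25a39 97.8-fold above Slc25a40 in counts, a control log2 ratio of 6.61 ± 0.52 (SD, n = 6), and above it per kb in all 10 libraries. Slc25a36, a pyrimidine nucleotide carrier, exceeded its relative Slc25a33 by 10.7-fold in counts (log2 ratio of Slc25a33 to Slc25a36 -3.41 ± 0.36, SD, n = 6) and by 2.10-fold per kb. Slc25a10 exceeded the oxoglutarate carrier Slc25a11 by 2.88-fold in counts and 1.77-fold per kb, and Slc25a23 exceeded Slc25a25, both ATP-Mg/phosphate carriers, by 1.67-fold and 2.48-fold. In each of these 5 pairs the same member was higher in 10 of 10 libraries on both scales.

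In the other pairs the order was not fixed or had no ratio. Of the aspartate/glutamate carriers, which drive the malate-aspartate shuttle, Slc25a12 had more counts than Slc25a13 in 9 of 10 libraries. Per kb, with the prior count of 2, Slc25a13 was the higher in all 10. In rilmenidine kidney 1 (255 counts of Slc25a12 and 131 of Slc25a13) they were near even per kb, and the order there rested on the prior count. Of the mitoferrins, Slc25a28 had more counts than Slc25a37 in 1 of 10 libraries and was higher per kb in 6. Of the glutamate carriers, Slc25a22 had 231 counts over the 6 controls and Slc25a18 none, which against a floor of 3 counts over the group puts Slc25a22 at least 77.0-fold higher in counts and 24.6-fold per kb. Of these counts 91 come from control 5, and without it the bounds are 46.7-fold and 14.9-fold. Slc25a5-ps, a pseudogene copy of Slc25a5, had 0 to 2 counts in a library, but how reads shared between copies were counted is not stated, so the split of reads among the close ADP/ATP carriers is uncertain.

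The pairs that hold the 2 most abundant carriers are shown by their promoters, because the members of each encode related proteins and yet differed widely in level. RefSeq promoters of GRCm38.p6 run from 250 bases before the start to 50 after it and were found for 36 of the 47 members. Each is written 5′ to 3′ on the strand of the gene, and capitals mark the GC box, the letters GGGCGG on either strand (CCGCCC on the other). The windows are X:36795347-36795646 (plus strand) for Slc25a5, 8:46211013-46211312 (minus) for Slc25a4, 11:102407468-102407767 (minus) for Slc25a39 and 5:8422588-8422887 (plus) for Slc25a40.
Slc25a5: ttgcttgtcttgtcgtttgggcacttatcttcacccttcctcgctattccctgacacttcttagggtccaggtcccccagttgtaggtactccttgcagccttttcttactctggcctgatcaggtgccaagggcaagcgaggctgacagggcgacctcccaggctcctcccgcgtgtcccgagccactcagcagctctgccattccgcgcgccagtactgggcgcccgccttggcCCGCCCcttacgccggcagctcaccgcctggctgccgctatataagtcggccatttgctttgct
Slc25a4: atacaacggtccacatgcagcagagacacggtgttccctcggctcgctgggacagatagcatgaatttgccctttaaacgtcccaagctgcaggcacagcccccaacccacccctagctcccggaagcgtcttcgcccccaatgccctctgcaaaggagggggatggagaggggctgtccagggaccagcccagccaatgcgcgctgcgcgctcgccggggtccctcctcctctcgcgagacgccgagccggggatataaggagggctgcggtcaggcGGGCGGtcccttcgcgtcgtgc
Slc25a39: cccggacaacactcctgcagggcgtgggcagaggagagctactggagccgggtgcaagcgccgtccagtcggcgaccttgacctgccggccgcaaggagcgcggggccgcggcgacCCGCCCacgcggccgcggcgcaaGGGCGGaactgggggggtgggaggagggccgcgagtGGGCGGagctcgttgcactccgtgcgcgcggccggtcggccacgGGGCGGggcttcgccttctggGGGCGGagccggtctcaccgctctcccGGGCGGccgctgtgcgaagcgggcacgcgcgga
Slc25a40: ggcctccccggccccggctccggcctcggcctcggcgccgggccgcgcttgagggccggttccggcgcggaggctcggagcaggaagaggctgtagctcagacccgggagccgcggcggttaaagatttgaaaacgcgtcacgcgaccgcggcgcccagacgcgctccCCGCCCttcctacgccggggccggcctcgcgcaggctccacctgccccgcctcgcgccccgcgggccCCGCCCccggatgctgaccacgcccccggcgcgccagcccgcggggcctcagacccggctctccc
The RefSeq start of Slc25a39 lies 429 bases and that of Slc25a4 222 bases from the outermost start in GENCODE, so these windows show the promoter of 1 start among several. Slc25a39 held 6 GC boxes and 45 CpG in its window, and Slc25a40, the far lower member, held 2 GC boxes and 47 CpG. Slc25a5 and Slc25a4 held 1 GC box each, with 18 and 25 CpG.

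The GC box, the letters bound by Sp family factors, occurred in 30 of the 36 member windows (83.3%), against 65.5% of the 7850 windows of genes tested here and 35.6% of all 27025 windows. Among the 28 members that were tested and had a window it was in 25 (89.3%). Where a gene had several windows, a member's was the one nearest its GENCODE start. The comparison sets took the one lowest in coordinate, so the shares here are not chosen alike. The median number of CpG was 17 in member windows, 21 in those of genes tested and 7 in all. The core of the NRF1 motif, a palindrome known from genes of respiration, was in 0 member windows and in 2.25% of those of genes tested. The ERR element TCAAGGTCA on either strand was in 0 member windows and in 0.217% of those of genes tested. At shares this low, 36 windows of any genes tested could readily hold none, so neither 0 is read as particular to the carriers. The E-box CACGTG was in 6 member windows (16.7%, against 10.6% of those of genes tested) and the letters TATAAA on either strand in 1, that of Slc25a18, against 6.97%. These are matches of letters in short windows, and they say nothing of binding.

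In the comparison of rilmenidine with control kidneys, which asks what the drug changed in this tissue, no carrier passed the threshold. The edgeR quasi-likelihood test over 10055 genes, with Benjamini-Hochberg adjustment over all of them, gave an adjusted p under 0.05 for 0 of 35 tested members and for 0% of all genes. The adjusted p of members ran from 0.349 to 0.995, and the smallest of any gene was 0.174. The DESeq2 Wald test and the edgeR likelihood ratio test also called 0 members, but 60 and 44 of the 10055 genes. At an unadjusted p under 0.05, 1 member was higher and 1 was lower with rilmenidine, against 4.43% of all genes higher and 6.13% lower (10.6% in both directions). The log2 fold change was above 0 in 22 of 35 members, with a median of 0.056, against 50.3% of all genes and a median of 0.0021.

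The log2 fold changes of members lay between -0.60 and 0.46, with standard errors between 0.12 and 0.38. For 32 of the 35 the 95% confidence interval stayed within a log2 change of 1 in either direction, and the exceptions were Slc25a22 and Slc25a40 on the lower side and Slc25a24 on the higher. The groups overlapped in all 35 members, where 0.796% of all genes had every rilmenidine kidney above every control and 0.875% every one below.

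**Figure D2:**
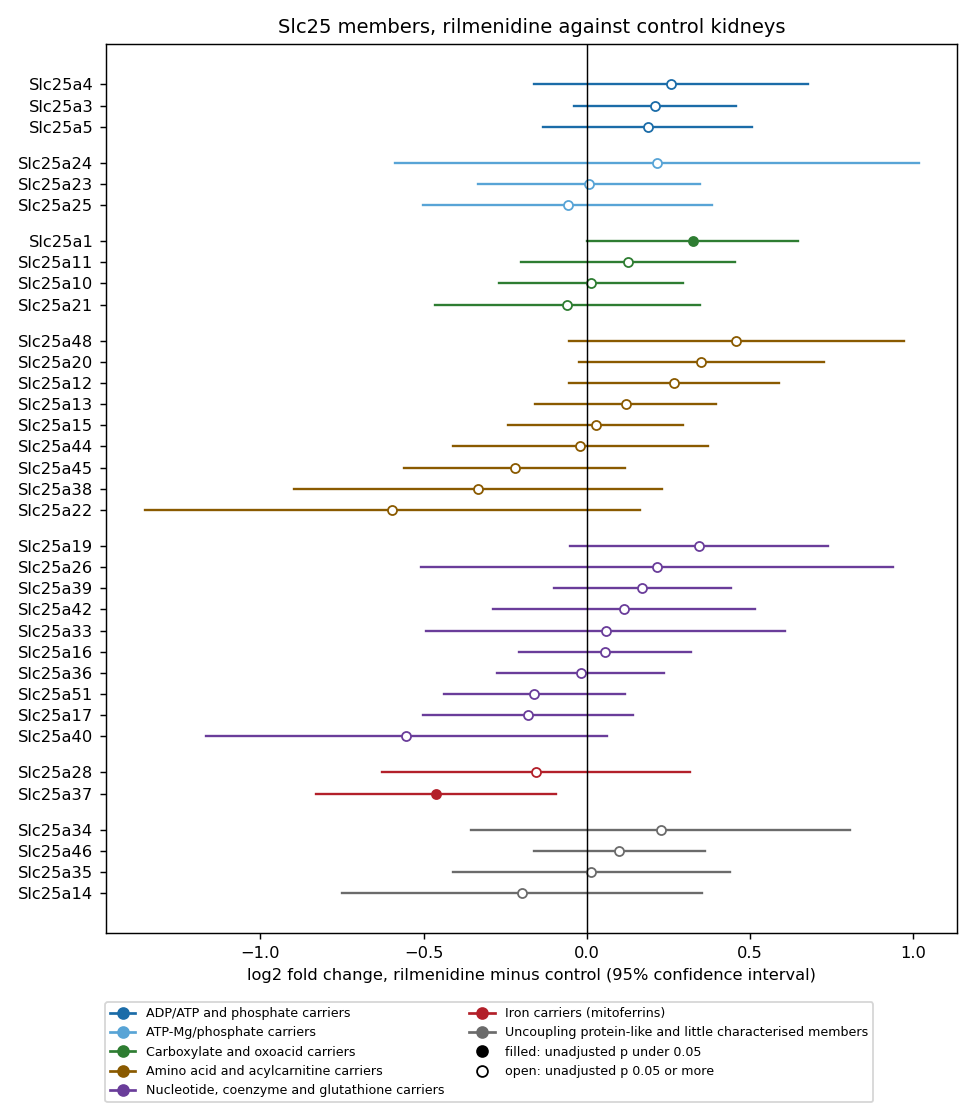
log2 fold change of the 35 tested members, rilmenidine minus control, with 95% confidence intervals from the edgeR fit, grouped and coloured by role. Filled points are the 2 members with an unadjusted p under 0.05, Slc25a1 on the right and Slc25a37 on the left, and the intervals of the other members cross 0.

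The abundant ADP/ATP and phosphate carriers and the glutathione carrier Slc25a39 had higher means with rilmenidine, none past the test. The direction of Slc25a5, Slc25a4 and Slc25a39 turned against the 2 low-Malat1 controls alone (log2 fold changes -0.13, -0.099 and -0.021, and 0.059 for Slc25a3). Slc25a5 stood at 1816, 1542, 1734 and 1656 CPM in rilmenidine kidneys 1 to 4, within the control range of 1246 to 1891 (log2 fold change 0.19, SE 0.15, unadjusted p from edgeR = 0.235). Slc25a3 stood at 638, 573, 624 and 604 CPM, with kidneys 1, 3 and 4 above the highest control (log2 fold change 0.21, SE 0.12, unadjusted p from edgeR = 0.0925). Slc25a4 stood at 464, 266, 280 and 288 CPM, so that the mean of 325 CPM rested on kidney 1. Without that kidney its log2 fold change went from 0.26 to 0.036. Slc25a39 stood at 1094, 1053, 1195 and 1248 CPM (log2 fold change 0.17, SE 0.13), and its range reached above the highest control of 1189 CPM in 2 kidneys.

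The lower member was Slc25a37, mitoferrin 1, the iron carrier best known from developing red cells (14:69241848-69285112, minus strand). Its controls ran from 39.8 over a median of 67.5 to 77.5 CPM, and the rilmenidine kidneys stood at 50.4, 40.7, 48.3 and 46.8 CPM. Every rilmenidine kidney was below 5 of the 6 controls, and control 6 was below all of them. The means were 64.7 ± 13.6 (SD, n = 6) and 46.6 ± 4.17 (SD, n = 4) CPM, a log2 fold change of -0.46 (SE 0.17, unadjusted p = 0.0171, edgeR adjusted p = 0.349). The 2 controls with low Malat1 stood at 61.1 and 39.8 CPM, and against these alone the log2 fold change was -0.099 (unadjusted p from edgeR = 0.634). Blood markers summed to between 980.1 and 8803 CPM in controls and between 2874 and 4115 CPM with rilmenidine. Of those 5 markers 4 were tested, with 0 past an unadjusted p of 0.05, and Alas2, the marker of red cell precursors, had 0 to 2 counts in a library. Slc25a28, mitoferrin 2, which serves tissues other than blood, differed by a log2 of -0.16 (SE 0.22, unadjusted p from edgeR = 0.494). Against the low-Malat1 controls alone it differed by -0.50 (unadjusted p from edgeR = 0.0535) and with Malat1 as a covariate by -0.45, so which mitoferrin differed more depended on those controls. Slc25a37 shares 381 exon bases with Gm31748 and 92 with Gm27223 on the opposite strand, and without a stated strand setting their reads cannot be told apart.

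The higher member was Slc25a1, the citrate carrier, which exports citrate for the making of fatty acids and sterols (16:17925223-17928219, minus strand). Its controls ran from 55.0 over a median of 59.9 to 86.9 CPM, and the rilmenidine kidneys stood at 77.7, 86.9, 85.7 and 87.4 CPM. Controls 2 and 6, at 86.9 and 82.7 CPM, lay among the rilmenidine kidneys, and the other controls were at or below 61.9 CPM. The means were 66.8 ± 14.2 (SD, n = 6) and 84.4 ± 4.54 (SD, n = 4) CPM, a log2 fold change of 0.32 (SE 0.15, unadjusted p = 0.0489, edgeR adjusted p = 0.471). Controls 2 and 6 are the ones with low Malat1, and against these alone the log2 fold change was -0.0033. Of the other carboxylate carriers, Slc25a10 and Slc25a11 differed by a log2 of 0.012 and 0.13 and Slc25a21, the oxoadipate carrier, by -0.059.

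Next in order of p among the members with a higher mean were Slc25a20 and Slc25a48. Slc25a20, which exchanges acylcarnitines for carnitine in fatty acid oxidation, ran from 19.3 over a median of 27.0 to 35.9 CPM in controls and stood at 33.6, 33.7, 38.5 and 29.98 CPM with rilmenidine (log2 fold change 0.35, SE 0.18, unadjusted p from edgeR = 0.0642). Of the controls, control 1 alone lay above the lowest rilmenidine kidney. Slc25a48 ran from 11.6 over a median of 18.2 to 26.4 CPM in controls and stood at 31.3, 32.04, 23.4 and 17.2 CPM (log2 fold change 0.46, SE 0.24, unadjusted p from edgeR = 0.0771), with kidney 4 below the control median. Against the low-Malat1 controls alone the log2 fold change was 0.33 for Slc25a20 and 0.17 for Slc25a48.

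Among the members with a lower mean, Slc25a40 and Slc25a22 followed Slc25a37. Slc25a40 ran from 5.39 over a median of 9.69 to 11.6 CPM in controls and stood at 6.96, 6.52, 6.65 and 4.997 CPM with rilmenidine, on 8 to 21 counts a library (log2 fold change -0.55, SE 0.29, unadjusted p from edgeR = 0.0745). Slc25a22 ran from 12.3 over a median of 16.9 to 52.6 CPM in controls and stood at 12.2, 11.9, 15.7 and 22.8 CPM (log2 fold change -0.60, SE 0.36, unadjusted p from edgeR = 0.115). Without control 5, whose 91 counts stand apart, the log2 fold change of Slc25a22 was -0.18, so this member's value rests on that library. Against the low-Malat1 controls alone Slc25a40 differed by -0.15 and Slc25a22 by -0.41.

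**Figure D3:**
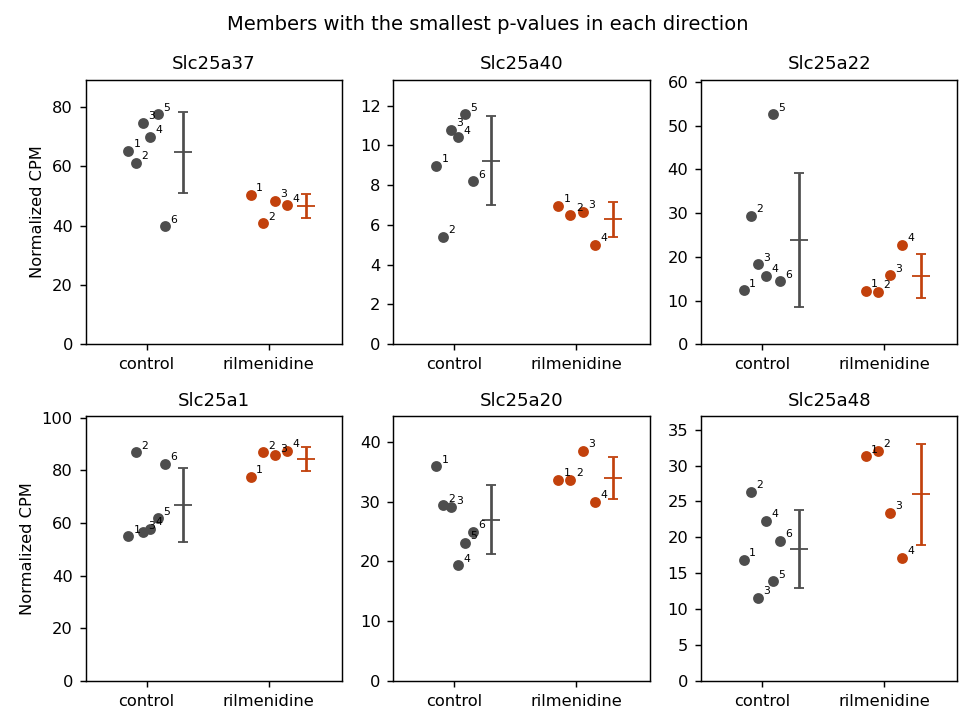
Normalized CPM in each kidney for the 3 tested members with the smallest p in each direction, lower ones in the upper row and higher ones in the lower row, with replicate numbers beside the points and mean ± SD as bars. The groups overlap in all 6 panels, through control 6 in Slc25a37 and controls 2 and 6 in Slc25a1, and control 5 sets Slc25a22 apart.

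By role, no member of any group passed the adjusted threshold. All 3 tested ADP/ATP and phosphate carriers had a log2 fold change above 0, with a median of 0.21, but 2 of them, Slc25a5 and Slc25a4, were below 0 against the low-Malat1 controls alone or with Malat1 as a covariate. The nucleotide, coenzyme and glutathione carriers were above 0 in 6 of 10, the amino acid and acylcarnitine carriers in 5 of 9 and the carboxylate carriers in 3 of 4. The ATP-Mg/phosphate carriers were above 0 in 2 of 3, the uncoupling protein-like and little characterised members in 3 of 4 and the mitoferrins in 0 of 2. Among members of the shuttles, Slc25a12 and Slc25a13 differed by a log2 of 0.27 (unadjusted p from edgeR = 0.0985) and 0.12, which were 0.017 and 0.079 against the low-Malat1 controls alone. Slc25a15, Slc25a16, Slc25a36 and Slc25a51 differed by 0.027, 0.056, -0.019 and -0.16 on the log2 scale, with standard errors between 0.12 and 0.13.

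The summed Slc25 level followed the same split of the controls as Malat1. Controls 1, 3, 4 and 5, with high Malat1, summed to 5375, 5358, 5254 and 4952 CPM, and controls 2 and 6 to 6442 and 6257 CPM. The rilmenidine kidneys summed to 6311, 5608, 6236 and 6209 CPM. The rilmenidine sums lay above all 4 high-Malat1 controls and below the 2 low-Malat1 controls, apart from kidney 1, which lay between the latter. Without the 3 highest members, controls 2 and 6 (2764 and 2739 CPM) still lay above controls 1, 3, 4 and 5 (2331 to 2562 CPM). Rilmenidine kidney 2, at 2440.3 CPM, then lay below controls 1, 3 and 4 (2562, 2560.2 and 2502 CPM). Malat1 itself averaged 1152 CPM in controls and 347 CPM with rilmenidine (log2 fold change -1.73, SE 0.42, unadjusted p = 0.000747, edgeR adjusted p = 0.211). Without the 4 high-Malat1 controls, 12 of 35 members were above 0 in log2 fold change instead of 22, their median was -0.069, and 0 members had an unadjusted p under 0.05 in either direction, against 3.25% of all genes. With log2 Malat1 as a covariate these were 15 of 35, -0.081 and 0 members. Within the 7 libraries with receptor reads, 1 member was higher and 3 were lower at an unadjusted p under 0.05, and 10.6% of all genes passed in either direction.

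**Figure D4:**
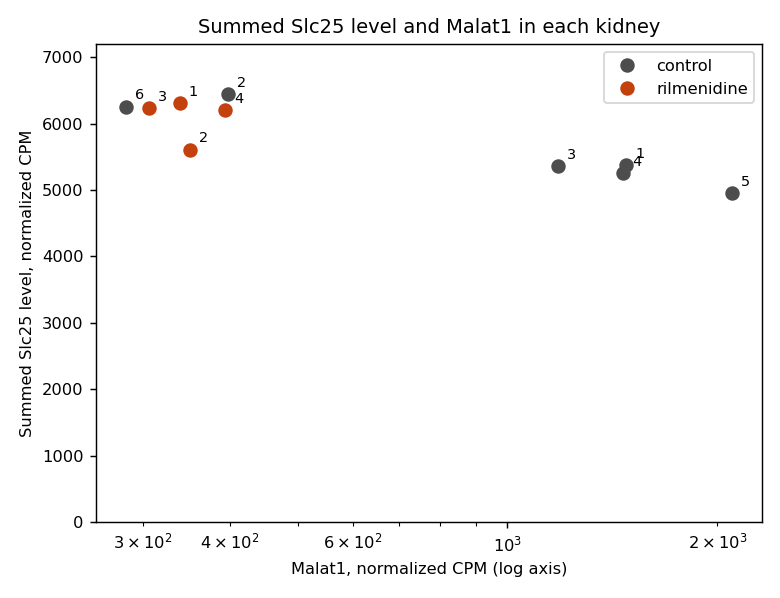
Summed normalized CPM of all Slc25 members against Malat1 CPM (log axis), 1 point per kidney, labelled by replicate number. The 4 controls with over 1000 Malat1 CPM lie at 4952 to 5375 CPM of Slc25, and the 2 other controls lie with the rilmenidine kidneys at 5608 to 6442 CPM.

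Balance between relatives was compared by the log2 ratio within each kidney, by an exact permutation test (two-sided) that runs through the 210 ways to divide the 10 kidneys into 6 and 4, whose smallest possible p is 0.00476, adjusted over 8 pairs. No pair passed. The ratio of Slc25a39 to Slc25a40 differed most, by 0.72 on the log2 scale, from 6.61 in controls to 7.33 with rilmenidine (exact p = 0.0524, adjusted p = 0.419). Its controls ran from 6.15 to 7.496 and its rilmenidine kidneys from 7.07 to 7.80, so the groups overlapped. With the prior count scaled to library size the difference was 0.63 (exact p = 0.0619), and without the 4 high-Malat1 controls it was 0.090. The ratio of Slc25a4 to Slc25a5 differed by 0.058 (exact p = 0.743), that of Slc25a12 to Slc25a13 by 0.17 (exact p = 0.362) and that of Slc25a28 to Slc25a37 by 0.30 (exact p = 0.433). Without the 4 high-Malat1 controls the difference between the mitoferrins was -0.44. The ratio of Slc25a33 to Slc25a36 differed by 0.044 (exact p = 0.848), that of Slc25a23 to Slc25a25 by 0.082 (exact p = 0.633) and that of Slc25a10 to Slc25a11 by -0.12 (exact p = 0.490). The order of the members in each pair that had a fixed order in controls was also that of every rilmenidine kidney. The ratio for Slc25a18, at 0 throughout, reflects depth and is not read.

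**Figure D5:**
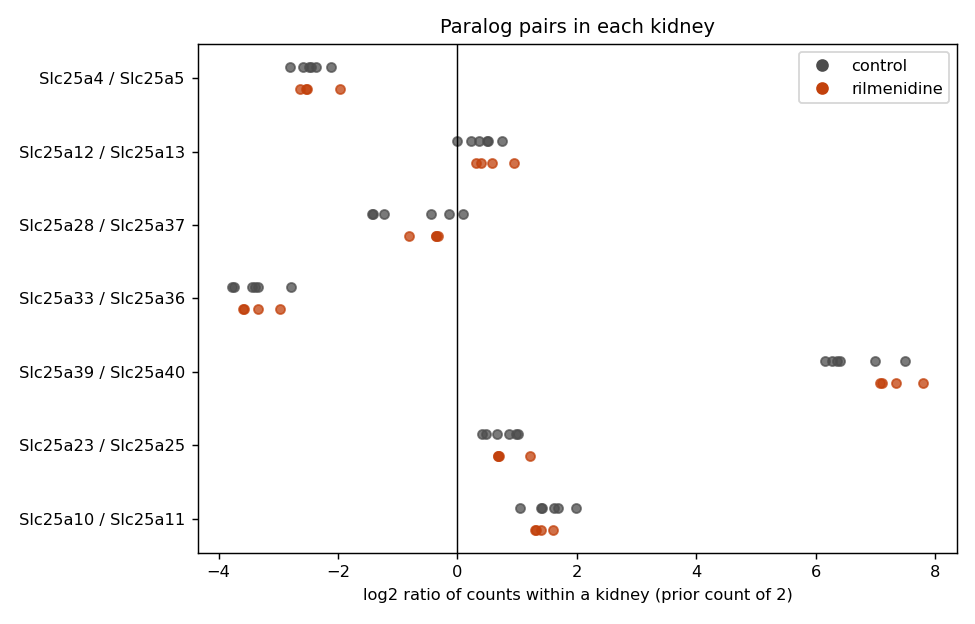
log2 ratio of counts (prior count of 2) within each kidney for 7 pairs of related carriers, 1 point per kidney, controls above and rilmenidine below on each line. Slc25a39 over Slc25a40 and Slc25a4 over Slc25a5 lie far from 0 in every kidney, and the groups overlap in all 7 pairs.

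Genes that work with the carriers were read from the same fit. Of the fold's other proteins, Ucp2, an uncoupling protein, averaged 133 ± 51.4 CPM in controls and 190.3 ± 53.5 CPM with rilmenidine (log2 fold change 0.51, unadjusted p = 0.0457, edgeR adjusted p = 0.464), but -0.0053 against the low-Malat1 controls alone. Ucp1 had 2 to 13 counts and Ucp3 0 or 1, and neither was tested. Of the pyruvate carrier, which belongs to another family, Mpc2 ran from 279 to 439 CPM in controls and stood at 546, 507, 608 and 513 CPM with rilmenidine, with no overlap (0.796% of all genes). Its log2 fold change was 0.48 (SE 0.13, unadjusted p = 0.00215, edgeR adjusted p = 0.232), and DESeq2 gave an adjusted p of 0.0498. It was 0.33 against the low-Malat1 controls alone. Mpc1, its partner subunit, had 0 to 3 counts in a library and was not tested.

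At an unadjusted p under 0.05 4.43% of all genes were higher. Of 13 tested inner membrane transporters outside the carrier fold 2 were higher at that level, and of 14 genes of the TOM and TIM22 path, which brings carrier proteins to the inner membrane, 2 were higher, Tomm7 with the smaller p (log2 fold change 0.39, unadjusted p from edgeR = 0.00879). The ATP synthase, which uses the ADP and phosphate the carriers bring, had 4 of 14 tested genes higher and a median log2 fold change of 0.23. Atp5j had the smallest p of them (log2 fold change 0.31, unadjusted p from edgeR = 0.0266). Of 3 outer membrane channels 1 was higher, Vdac2 (log2 fold change 0.29, unadjusted p from edgeR = 0.0406), and of 4 genes of the carnitine system 1, Cpt2 (log2 fold change 0.27, unadjusted p from edgeR = 0.0385). None of 6 shuttle enzymes passed, Mdh1 with the smallest p among them (log2 fold change 0.24, unadjusted p from edgeR = 0.164). Against the low-Malat1 controls alone the log2 fold change was 0.26 for Tomm7, 0.23 for Atp5j, 0.15 for Vdac2, 0.24 for Cpt2 and -0.087 for Mdh1. Of each list only the gene with the smallest p was taken this way, so the list medians have no such value. Controls 2 and 6 stood at 2039 and 1852 CPM for Atp5b, against a rilmenidine mean of 1849 CPM. For Atp5j they stood at 103 and 126 CPM, against 134 CPM. Summed over the ATP synthase list, the highest control, at 13564 CPM, lay within the rilmenidine range of 12100 to 14256 CPM. The median log2 fold change was 0.0052 in the inner membrane list, 0.10 in the TOM and TIM22 list, 0.17 in the channels, 0.13 in the shuttle enzymes, -0.015 in the carnitine system and 0.15 in the other carrier fold proteins, against 0.0021 over all genes. In these 6 lists and among the 3 tested other carrier fold proteins, 0 genes were lower at an unadjusted p under 0.05 and 0 passed the adjusted threshold in edgeR.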

How the data were processed

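The authors deposited raw counts of reads per Ensembl gene for 10 kidney libraries made by a 3′-end protocol with molecular identifiers. The paper and the submitters' processing notes name bcl2fastq 1.8.4, Trimmomatic 0.32, STAR 2.5.2b, featureCounts 1.5 and the mm10 build. The annotation, the strand setting and the handling of identifiers are not given in the sources used here. The labels give 6 controls, fewer than the supplementary methods.

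Of 43629 genes, 42462 were named from GENCODE M21. A gene had to reach 6 reads in 7 of the 10 libraries, which is the minimum of the study's methods. Counts were then scaled by RLE, and edgeR 4.0.16 (R 4.3.3) gave the quasi-likelihood test without covariates, with Benjamini-Hochberg adjustment and a threshold of 0.05. Levels are normalized CPM. Library sizes limit low genes, and the tests cover counting error and the spread between kidneys only. Scripts were tested on simulated data. No 2 libraries agreed within sampling noise (smallest chi-square per degree of freedom between 2 libraries 4.10).

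Named with values were the 8 highest members in controls, those with an unadjusted p under 0.05, the 3 smallest p in each direction, both members of 8 pairs, the highest and lowest coefficient of variation and, of each neighbouring list, the smallest p, the uncoupling proteins and the pyruvate carrier. Slc25a21, Slc25a24, Slc25a26, Slc25a35 and Slc25a44 were named after their values were seen. Members, lists and alternatives were chosen with earlier results of these data known. Protein sequences were not used here. RefSeq promoters (GRCm38.p6) were searched on both strands. Alternatives were TMM, 2 filters, DESeq2 1.42.0, the likelihood ratio test, covariates of library size or Malat1, the replicate block, libraries with receptor reads, another prior count for ratios and leaving out each library. Leaving out the high-Malat1 controls, a prior count scaled to library size and the neighbouring genes' alternatives were added after seeing the data.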

Additional observations from a re-analysis of the deposited data

Results flagged for a closer look

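Among 70 sets of values (35 tested members in 2 groups), 3 held a kidney far from the others of its group by Dixon's test, where chance gives about 1 in 20. Slc25a4, an ADP/ATP carrier, stood at 463.9 CPM in rilmenidine kidney 1 and at 266.1 to 288.2 CPM in the other 3. Slc25a36, a pyrimidine nucleotide carrier, stood at 186.3 CPM in control 1 and at 141.1 to 154.4 CPM in the other controls, and without control 1 its log2 fold change was 0.037 instead of -0.019. Slc25a44, a carrier of branched-chain amino acids, stood at 20.29 CPM in rilmenidine kidney 3 and at 26.86 to 27.69 CPM in the other 3.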

How the results depend on the processing

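No alternative gave any member an adjusted p under 0.05. Members higher and lower at an unadjusted p under 0.05 (1 and 1) were 1 and 2 with a filter of 1 count in any sample (7.38% of all genes passing in either direction), 0 and 1 with at least 10 counts in every sample (12.8%), DESeq2 (9.80%) or the likelihood ratio test (9.87%), 0 and 2 with library size as a covariate (4.30%), 0 and 0 with Malat1 as a covariate (3.03%, median log2 fold change -0.081) or without the high-Malat1 controls (3.25%), and 1 and 3 in the libraries with receptor reads (10.6%), against 10.6% of all genes with all libraries. Leaving out each library gave 0 to 2 higher and 0 to 2 lower, with 7.35% to 14.4% of all genes passing in either direction. The 0 and 0 without rilmenidine 2 (12.1%) and the 2 and 2 without control 2 (13.6%) were the extremes. For all genes 0 adjusted calls became 241 with the loose filter, 60 with DESeq2 and 44 with the likelihood ratio test, and 31, 37 and 6 without control 2, control 6 or rilmenidine 1.

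Some log2 fold changes turned sign. Slc25a23 gave -0.0012 with at least 10 counts in every sample. With library size as a covariate Slc25a15 gave -0.14, Slc25a10 -0.0059, Slc25a23 -0.24, Slc25a36 0.077 and Slc25a11 -0.0099. With Malat1 as a covariate Slc25a5 gave -0.11, Slc25a39 -0.0088, Slc25a15 -0.15, Slc25a51 0.0043, Slc25a4 -0.060, Slc25a10 -0.15, Slc25a33 -0.21, Slc25a23 -0.22, Slc25a36 0.0091, Slc25a11 -0.16 and Mdh1 -0.097. Without the high-Malat1 controls Slc25a5 gave -0.13, Slc25a39 -0.021, Slc25a15 -0.14, Slc25a51 0.042, Slc25a4 -0.099, Slc25a10 -0.16, Slc25a1 -0.0033, Slc25a33 -0.25, Slc25a23 -0.26, Slc25a36 0.042, Slc25a11 -0.15, Ucp2 -0.0053 and Mdh1 -0.087. With the receptor libraries Slc25a15 gave -0.036 and Slc25a23 -0.13. The cause of these turns was not tested.

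Leaving out each library moved the log2 fold change of Slc25a15 between -0.020 and 0.090, Slc25a23 between -0.12 and 0.084, Slc25a36 between -0.067 and 0.037, Slc25a33 between -0.13 and 0.20, Slc25a10 between -0.053 and 0.056, Slc25a16 between -0.00037 and 0.10, and Slc25a25 between -0.25 and 0.075. It moved the group difference of the log2 ratio of the ADP/ATP carriers between -0.090 and 0.13, of the pyrimidine nucleotide carriers between -0.087 and 0.17, and of the ATP-Mg/phosphate carriers between -0.049 and 0.14. Without the high-Malat1 controls that difference turned to -0.072 for the aspartate/glutamate carriers, -0.44 for the mitoferrins and -0.31 for the pyrimidine nucleotide carriers. The value of the glutamate carriers, with Slc25a18 at 0 throughout, follows depth and Slc25a22 alone and is not read: it was 0.50 with a prior count scaled to library size, 0.26 without the high-Malat1 controls and between -0.47 and 0.16 when each library was left out.

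Replicate numbers are not said to pair kidneys, and same-numbered kidneys deviated together by correlations of 0.076, 0.078, -0.077 and -0.0070, with 0 of 4 rilmenidine libraries closest to the control of their number. With the replicate block 1 member was higher and 1 lower at an unadjusted p under 0.05, against 9.12% of all genes in either direction. The median log2 fold change of members was 0.030, and 3 genes in all had an adjusted p under 0.05. Slc25a16 then gave -0.0081, Slc25a33 -0.036 and Slc25a25 0.14.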
